A study of Mus musculus with 6 samples.

Results

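The circadian clock of pancreatic islets was followed through 10 genes, Per1, Per2, Per3, Cry1, Cry2, Arntl, Clock, Dbp, Nr1d1 and Nr1d2. They were chosen by name as the main components of the loop, with earlier results of these data known. They made up 10 of the 53670 genes in the deposited count table. All 10 were among the 15915 genes that passed the filter on low counts. RNA came from islets freed with collagenase from 6-week-old mice, with 3 libraries of the genotype Paupar +/+ (WT) and 3 of the genotype Paupar -/- (KO), where Paupar is a long noncoding RNA gene next to Pax6. Strain, the number of mice behind a library, how the knockout was made and the time of day of collection were not given in the sources used here. Nothing in the labels ties replicates to separate animals, so the p-values speak only for the spread among these 6 samples, which may be technical in part, although sex-linked transcripts (given with the depths) set KO replicate 1 apart from KO replicates 2 and 3.

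The mammalian clock is a feedback loop of transcription. ARNTL (also called BMAL1) and CLOCK form a dimer that binds E-boxes and activates the Per and Cry genes, whose proteins then hold the dimer back. The same dimer activates Nr1d1 and Nr1d2, which encode the nuclear receptors REV-ERB alpha and beta that repress Arntl, and Dbp, an activator that binds D-boxes. Arntl transcripts therefore stand high at times of day when Dbp and Nr1d1 stand low, and the reverse. In islets this loop is known for setting a daily rhythm in insulin secretion, and beta cells that lack Arntl secrete insulin poorly.

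The 6 libraries held 25733194 to 27285009 gene counts each, and levels are given as counts scaled to the library total and by edgeR's TMM factors (CPM). A count of 0 allows up to 3 counts, or 0.110 to 0.117 CPM, as counting error alone. For Paupar the 3 WT libraries held 177, 252 and 111 counts and the 3 KO libraries 4, 0 and 4, in the order of their replicate numbers, which matched the labels. Every islet marker list was present in each library, and beta cell genes together took 21.4 to 24.4% of counts in WT and 27.3 to 27.5% in KO. Counts of Xist, the transcript that silences an X chromosome, came to 1, 6 and 3 in WT against 0, 1120 and 862 in KO, while those of the Y-linked gene Ddx3y came to 1715, 1316 and 1830 in WT against 1693, 2 and 0 in KO. KO replicate 1 therefore resembled the WT libraries in these sex-linked genes and KO replicates 2 and 3 did not, and in those 2 libraries sex and genotype cannot be told apart.

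Promoters of 4 members are shown, picked from those that hold letters of elements that clock factors are known to bind. They come from RefSeq on GRCm38.p6 and reach from 250 bases before the transcription start to 50 after it. Letters searched on both strands were CACGTG (E-box), CACGTT (a variant E-box, E-prime), TTATGTAA (D-box), TAGGTCA (core of the element shared by REV-ERB and ROR receptors) and TGACGTCA (cAMP response element), and matches are in capitals. The last 2 share the ending GTCA, and no matches overlapped in these windows. The table held windows for 9 of the 10 members, 13 windows in all, and none for Per2.
Per1 (chr11:69098699-69098998, plus strand, 1 of 2 starts): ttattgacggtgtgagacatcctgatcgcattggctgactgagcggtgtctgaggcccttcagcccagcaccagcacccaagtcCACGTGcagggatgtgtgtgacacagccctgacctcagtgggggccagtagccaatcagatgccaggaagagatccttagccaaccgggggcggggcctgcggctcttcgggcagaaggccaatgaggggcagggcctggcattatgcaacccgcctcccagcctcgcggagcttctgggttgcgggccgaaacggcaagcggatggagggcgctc
Cry1 (chr10:85185005-85185304, minus strand): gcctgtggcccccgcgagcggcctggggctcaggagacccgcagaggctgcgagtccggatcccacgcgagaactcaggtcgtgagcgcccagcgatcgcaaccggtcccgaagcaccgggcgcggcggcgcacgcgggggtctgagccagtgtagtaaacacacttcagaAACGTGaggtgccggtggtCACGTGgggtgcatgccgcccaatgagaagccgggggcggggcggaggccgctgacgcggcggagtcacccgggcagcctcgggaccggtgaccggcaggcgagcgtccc
Per3 (chr4:151044616-151044915, minus strand): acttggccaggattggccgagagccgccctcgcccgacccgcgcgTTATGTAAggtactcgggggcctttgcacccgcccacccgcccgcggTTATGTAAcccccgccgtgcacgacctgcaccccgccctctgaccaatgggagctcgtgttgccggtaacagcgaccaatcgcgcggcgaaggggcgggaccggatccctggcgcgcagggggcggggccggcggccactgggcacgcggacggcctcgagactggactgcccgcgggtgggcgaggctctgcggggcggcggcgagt
Arntl (chr7:113207261-113207560, plus strand, 1 of 2 overlapping starts): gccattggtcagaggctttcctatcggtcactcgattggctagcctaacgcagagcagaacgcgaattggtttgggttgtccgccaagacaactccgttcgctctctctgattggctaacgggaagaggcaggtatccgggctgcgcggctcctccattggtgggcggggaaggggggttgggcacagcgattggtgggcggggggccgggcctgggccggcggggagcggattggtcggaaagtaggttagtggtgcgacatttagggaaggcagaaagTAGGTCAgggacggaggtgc

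The Per1 window holds an E-box at -166 from the start, and the Cry1 window an E-prime box at -79 and an E-box at -60. The Per3 window holds a pair of D-boxes at -205 and -158, and the Arntl window the REV-ERB and ROR core at 31. Elsewhere the searched letters were met as an E-prime box in Cry2 at -166 and in Nr1d1 at -28. No searched letters were met in the windows of Clock, Dbp and Nr1d2. The E-box was in 2 of the 13 member windows. Among all 32851 windows of the same length, 7.15% hold the E-box, 4.68% the E-prime box, 0.938% the D-box, 2.61% the REV-ERB and ROR core and 1.79% the cAMP response element. A match is a description of letters, and no binding was measured here.

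For none of the 10 clock genes did the difference between KO and WT islets pass the test. The larger contrast lay within the WT group. WT replicates 1 and 2 had high Arntl and low Dbp, Nr1d1, Nr1d2, Per1 and Cry2, while WT replicate 3 had the opposite pattern, and the 3 KO libraries lay on the side of WT replicate 3 or in between. Only Clock was nearly level across all 6 libraries. In edgeR's quasi-likelihood test with Benjamini-Hochberg adjustment over all tested genes, 0 of 10 members passed an adjusted p of 0.05, where 0.17% of all tested genes did. The count was also 0 of 10 in DESeq2, where 4.06% of all tested genes passed, and in limma-voom, where 0% did. At an unadjusted p below 0.05, 0 of 10 members were met in edgeR, where the background was 16.4%. In 0 of 10 did the KO libraries lie wholly outside the range of the WT libraries, which 23.4% of all tested genes did. The smallest adjusted p among the members was 0.372, for Arntl.

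**Figure D1:**
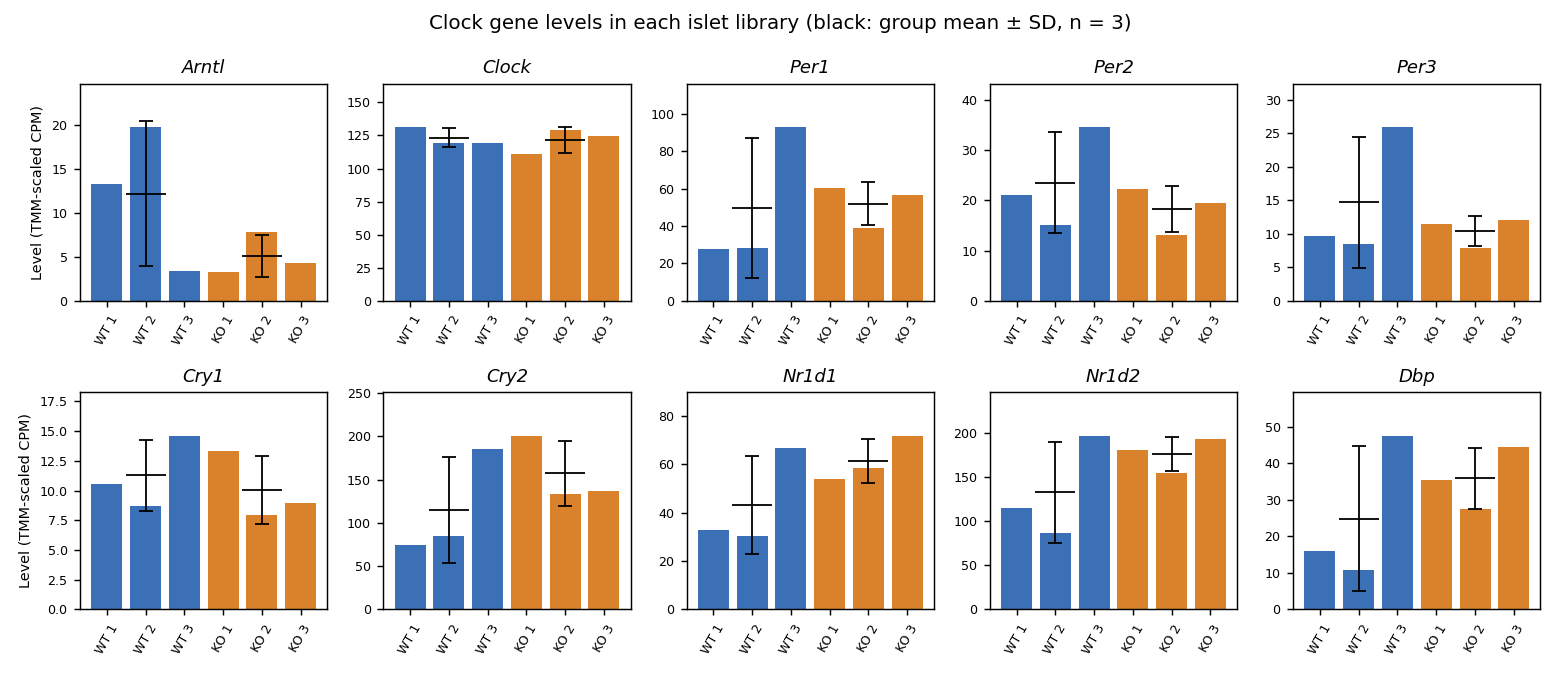
TMM-scaled CPM of the 10 clock genes in each library (blue bars WT, orange bars KO), with the mean ± SD of each genotype (n = 3) in black. Arntl is highest in WT replicates 1 and 2, most other members are highest or nearly so in WT replicate 3, and the 2 genotypes overlap in every panel.

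Arntl, the partner of CLOCK in the activating dimer (chromosome 7, 120350979 to 120457636 in mm9), varied most. Its level was 13.4, 19.8 and 3.41 CPM in the WT libraries and 3.24, 7.79 and 4.34 in the KO libraries, here and below in the order of their replicate numbers. WT replicate 2 stood 5.81-fold above WT replicate 3, and WT replicate 3 lay among the KO libraries. On the log2 scale KO over WT was at -1.25 (SE 0.62, adjusted p = 0.372 in edgeR). Within genotypes the SD of log2 CPM was 1.03, larger than that of 97.0% of tested genes.

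Clock (chromosome 5, 76639992 to 76733817), the other subunit of the dimer, was steady. Its level was 131, 119 and 120 CPM in WT and 111, 129 and 125 in KO. No library stood apart, and the highest was 1.19-fold above the lowest. KO over WT stood at -0.02 on the log2 scale (SE 0.08, adjusted p = 0.924 in edgeR), and the SD within genotypes, 0.10 on the log2 scale, was near that of the 21.7th percentile of tested genes.

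Among the Per genes, which encode the repressors whose build-up closes the loop, WT replicate 3 was the highest library for all 3. Per1 (chromosome 11, 68908719 to 68923462), the member shown above with an E-box, was at 27.9, 28.0 and 93.0 CPM in WT and at 60.5, 38.9 and 56.6 in KO. All KO libraries lay between WT replicates 1 and 2 on one side and WT replicate 3 on the other, and KO over WT stood at 0.07 on the log2 scale (SE 0.48, adjusted p = 0.963 in edgeR). Per3 (chromosome 4, 150377761 to 150418774), the member with a pair of D-boxes, was at 9.69, 8.40 and 25.9 CPM in WT and 11.4, 7.87 and 12.03 in KO. Here WT replicate 3 stood alone, and the other 5 libraries lay close together (log2 fold change -0.49, SE 0.44, adjusted p = 0.621 in edgeR). Per2 (chromosome 1, 93312561 to 93355907) was at 21.0, 15.02 and 34.6 CPM in WT and 22.2, 13.1 and 19.5 in KO. Its lowest library was KO replicate 2, and WT replicate 3 was again above the rest (log2 fold change -0.36, SE 0.32, adjusted p = 0.621 in edgeR).

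The cryptochromes, which join the PER proteins in repression, followed different orders of libraries. Cry2 (chromosome 2, 92243803 to 92274200) was at 73.9, 84.7 and 185.7 CPM in WT and 200.5, 133 and 137 in KO. WT replicates 1 and 2 were below the other 4 libraries, and KO replicate 1 was the highest (log2 fold change 0.45, SE 0.36, adjusted p = 0.580 in edgeR). Cry1 (chromosome 10, 84594447 to 84647799), which carries a REV-ERB-responsive enhancer and is known to peak later in the cycle than the Per genes, was at 10.5, 8.74 and 14.6 CPM in WT and 13.3, 7.94 and 8.94 in KO. WT replicate 3 and KO replicate 1 were high, and WT replicate 2 was low with KO replicates 2 and 3, the highest library being 1.84-fold above the lowest (log2 fold change -0.16, SE 0.26, adjusted p = 0.793 in edgeR).

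The REV-ERB genes, repressors of Arntl, were low in WT replicates 1 and 2 and high in the other 4 libraries. Nr1d1 (chromosome 11, 98629246 to 98636647) was at 32.7, 30.3 and 66.6 CPM in WT and 53.9, 58.4 and 71.7 in KO. Nr1d2 (chromosome 14, 19036568 to 19071641) was at 114, 87.0 and 196 CPM in WT and 181, 155 and 192 in KO. WT replicate 3 lay within the KO range for Nr1d1 and just above it for Nr1d2. The log2 fold changes were 0.50 (SE 0.30, adjusted p = 0.462 in edgeR) for Nr1d1 and 0.41 (SE 0.28, adjusted p = 0.518) for Nr1d2.

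Dbp (chromosome 7, 52960458 to 52965525), the D-box activator that is a common readout of the clock, ran opposite to Arntl among the WT libraries. It was at 16.1, 10.9 and 47.5 CPM in WT and 35.6, 27.6 and 44.4 in KO. WT replicate 2 was the lowest library and WT replicate 3 the highest, 4.36-fold apart, with all KO libraries between WT replicates 1 and 3. KO over WT stood at 0.53 on the log2 scale (SE 0.52, adjusted p = 0.655 in edgeR), and the SD within genotypes of 0.81 exceeded that of 94.7% of tested genes.

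The ratio of Dbp to Arntl counts within a library does not depend on library scaling. It was 1.21, 0.550 and 13.9 in the WT libraries and 10.99, 3.54 and 10.2 in the KO libraries. The ratio was lowest in WT replicate 2, highest in WT replicate 3 and intermediate in KO replicate 2, and the WT libraries alone spanned the whole range. As a description with no test, the KO mean on the log2 scale was 1.81 above the WT mean. That difference was 0.84 without WT replicate 2 and 3.17 without WT replicate 3.

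**Figure D2:**
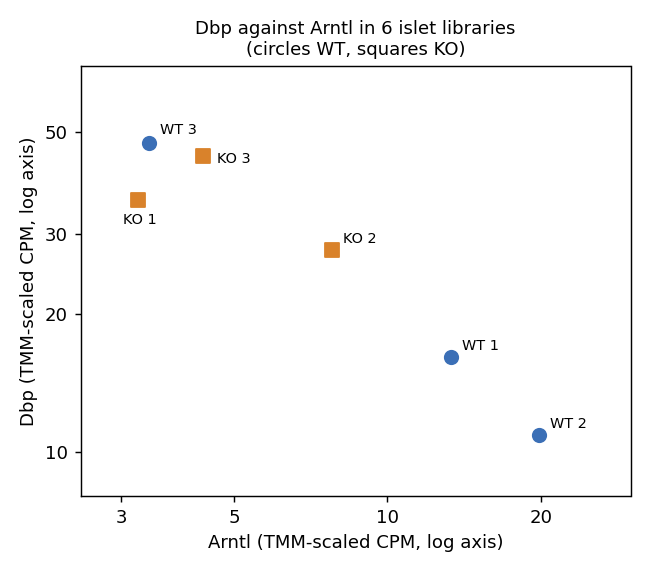
Dbp against Arntl in TMM-scaled CPM on log axes, 1 point per library (circles WT, squares KO). WT replicates 1 and 2 lie at high Arntl and low Dbp, WT replicate 3 lies beside KO replicates 1 and 3 at low Arntl and high Dbp, and KO replicate 2 lies between.

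Markers of other cells also differed between the libraries, and in bulk RNA fewer cells of a type and less RNA per cell cannot be told apart. The 14 acinar genes, none at 0 over all libraries, took 7.98, 4.597 and 2.66% of counts in WT and 4.81, 3.45 and 1.83% in KO, highest in WT replicate 1. The 3 lymphocyte genes summed to 158, 161.5 and 35.2 CPM of the total in WT and 91.5, 59.1 and 61.5 in KO. Ptprc and Cd79a made up most of this sum and were highest in the 2 libraries with high Arntl. Cd3e was highest in KO replicate 1 instead, at 1.67, 1.74 and 0.622 CPM of the total in WT and 2.13, 1.75 and 0.779 in KO. Among the 7 endothelial genes the sum was 350, 392 and 461 CPM in WT and 510, 497 and 498 in KO. It was lowest in WT replicates 1 and 2, as Nr1d1 and Nr1d2 were. For the 3 Schwann cell genes the sum was 5.45 to 6.45 CPM in WT and 2.35 to 3.49 in KO. In edgeR 0 of these 27 genes passed an adjusted p of 0.05, and at an unadjusted p below 0.05 there were 4 lower (1 acinar and 3 Schwann cell genes) and 6 higher, all endothelial, where the background was 9.38% lower and 6.99% higher. DESeq2, with a background of 4.06%, called 3 of the 27, the endothelial genes Cdh5, Flt1 and Kdr, all higher in KO, and limma-voom called 0. Their part in the clock values was not tested.

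Libraries of one genotype differed widely in most of these genes. Leaving Clock aside, the within-genotype SD of log2 CPM ran from 0.38 for Cry1 to 1.03 for Arntl, at the 78.3rd to 97.0th percentile of tested genes. The median over the 10 members was 0.53, against 0.18 over all tested genes. The spread was wider in WT for 8 of these 9 genes, with an SD for Dbp of 1.10 in WT and 0.34 in KO. Cry1 was the exception, at 0.37 in WT and 0.39 in KO. Clock, set aside here, was also wider in KO, at 0.08 in WT and 0.12 in KO. In each of the 9 genes WT replicate 3 was the WT library that stood apart, so they are not 9 separate observations. The share of all tested genes with a wider spread in WT was not counted. Within KO alone the Arntl SD of 0.64 was above that of 92.4% of tested genes, while that of Nr1d2, 0.16, was at the 52.2nd percentile.

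Leaving out WT replicate 3 moved the fold changes of the members more than leaving out any other library did for 7 of them. Without it the log2 fold change in edgeR was 1.42 for Dbp (SE 0.25, adjusted p = 0.0793), 0.97 for Nr1d1 (SE 0.14, adjusted p = 0.0522), 0.997 for Cry2 (SE 0.20, adjusted p = 0.0910) and 0.90 for Per1 (SE 0.19, adjusted p = 0.1). Arntl stood at -1.68 (SE 0.36, adjusted p = 0.1) and Nr1d2 at 0.81 (SE 0.15, adjusted p = 0.0863). Per3 was at 0.22, Cry1 at 0.08, Per2 at 0.03 and Clock at -0.03. In that fit 0 of 10 passed, where 0.547% of all tested genes did. WT replicate 3 is the library set apart by these same values. In all members but Clock, WT replicates 1 and 2 lay closer to each other than to it. Leaving it out therefore lowers the SE of most of them, and the adjusted p values of that fit are no separate test of genotype. Leaving out WT replicate 2 instead put Dbp at 0.17 (SE 0.45, adjusted p = 0.910 in edgeR) and Nr1d1 at 0.30 (SE 0.30, adjusted p = 0.725). Nr1d2 then stood at 0.18, Cry2 at 0.27, Per1 at -0.22 and Arntl at -0.71. The median over the 10 members was 0.02 with all libraries, beside 0.0023 over all tested genes, and 0.52 without WT replicate 3. With KO replicate 1 alone against the 3 WT libraries, which are alike in their sex-linked transcripts, Arntl was at -1.91 (SE 1.05, adjusted p = 0.735) and Dbp at 0.52 (SE 0.83, adjusted p = 0.906). The spread in that fit comes from the WT libraries alone, and the lone KO library is assumed to vary as they do, so these values say little for genes in which the WT libraries differ this much.

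**Figure D3:**
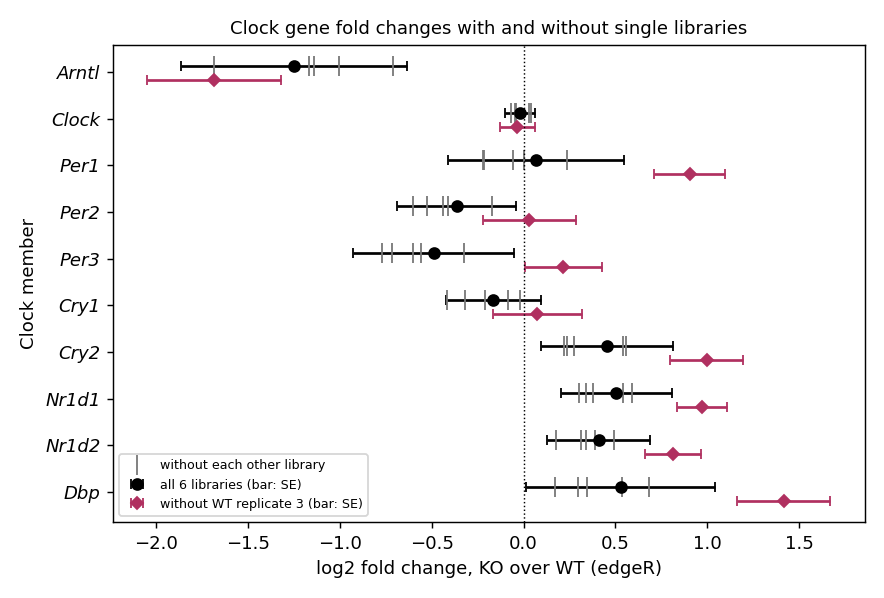
Log2 fold change of KO over WT in edgeR for the 10 members, with all 6 libraries (black circles, bars SE), without WT replicate 3 (red diamonds, bars SE) and without each other library (grey ticks). Dbp, Nr1d1, Nr1d2, Cry2 and Per1 shift upward when WT replicate 3 is left out. Per2, Per3 and Cry1 also shift upward and change sign, Arntl shifts downward, and Clock stays near 0.

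Levels can be compared between genes only per length. As CPM per kilobase of exon, averaged over the 6 libraries, the order was Nr1d2 (30.8), Cry2 (21.5), Nr1d1 (16.7), Clock (13.9), Dbp (10.3), Per1 (9.03), Per2 (3.58), Cry1 (3.54), Arntl (2.96) and Per3 (1.31). Nr1d2 was above Cry2, and Per1 above Per2, in 6 of 6 libraries, and Cry2 was above Nr1d1 in 5. The other neighbours in the order swapped places between libraries: Per2 with Cry1 and Cry1 with Arntl kept their order in 3 of 6, and the remaining 4 pairs in 4 of 6. Arntl ranged from 1.11 CPM per kilobase in KO replicate 1 to 6.77 in WT replicate 2, so that its place in the order depended on the library.

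Several members overlap a gene on the other strand, and the sources used here do not say whether counting used strand. Nr1d1 shares 263 bp, 8.42% of its exonic length, with the thyroid hormone receptor gene Thra, Dbp shares 491 bp (16.7%) with the sphingosine kinase gene Sphk2, and Cry2 shares 295 bp (4.67%) with D930015M05Rik. Thra counts were level, at 1079, 1144 and 1191 in WT and 985, 1114 and 1154 in KO. For Sphk2 the WT libraries held 1179, 1175 and 904 counts and the KO libraries 959, 920 and 844, highest in the 2 libraries with the lowest Dbp. D930015M05Rik had 1 to 16 counts in any library, against 1976 to 5268 for Cry2.

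The wider clock was described by 26 further genes, of which 25 were tested, Rorb being too low at 1 to 7 counts. In edgeR 0 of 25 passed an adjusted p of 0.05 in either direction, and an unadjusted p below 0.05 was met by 1 that was lower and 1 that was higher (background 9.38% lower and 6.99% higher). In DESeq2 and in limma-voom 0 of 25 passed. Groups did not overlap for 4 lower and 3 higher, where the background was 12.1% and 11.3%. Their median log2 fold change was 0.05, beside 0.0023 over all tested genes.

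Relatives of Dbp among these genes had library values in an order close to its own. Hlf, a D-box activator related to Dbp, was at 9.32, 5.76 and 27.7 CPM in WT and 19.5, 11.9 and 19.1 in KO, which put KO over WT at 0.24 on the log2 scale (SE 0.55, adjusted p = 0.867 in edgeR). Tef, the third gene of that family, ran likewise from 54.4 CPM in WT replicate 2 to 139 in WT replicate 3. Ciart, which encodes a further repressor of the dimer and was picked out after its values were seen, ran from 1.12 CPM in WT replicate 2 to 5.82 in WT replicate 3. Each of these was lowest in WT replicate 2 and highest in WT replicate 3, as Dbp was.

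Nfil3, a D-box repressor that is itself repressed by REV-ERB, was at 24.8, 33.7 and 5.34 CPM in WT and 5.56, 17.4 and 8.18 in KO, which put KO over WT at -1.04 on the log2 scale (SE 0.67, adjusted p = 0.499 in edgeR). Npas2, a paralog of Clock that can replace it in the dimer, was at 2.99, 7.36 and 0.778 CPM in WT and 0.533, 2.1 and 0.754 in KO, which put KO over WT at -1.71 on the log2 scale (SE 0.84, adjusted p = 0.368 in edgeR). Both were highest in WT replicates 1 and 2, as Arntl was, and low in WT replicate 3 and KO replicates 1 and 3. The E-box repressor genes Bhlhe40 and Bhlhe41 were at log2 fold changes of 0.32 (SE 0.39, adjusted p = 0.723) and 0.06 (SE 0.26, adjusted p = 0.936), both lowest in WT replicate 2. The ROR receptor gene Rora, whose protein activates Arntl through the element that REV-ERB also uses, was steadier, at 0.14 (SE 0.13, adjusted p = 0.639).

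**Figure D4:**
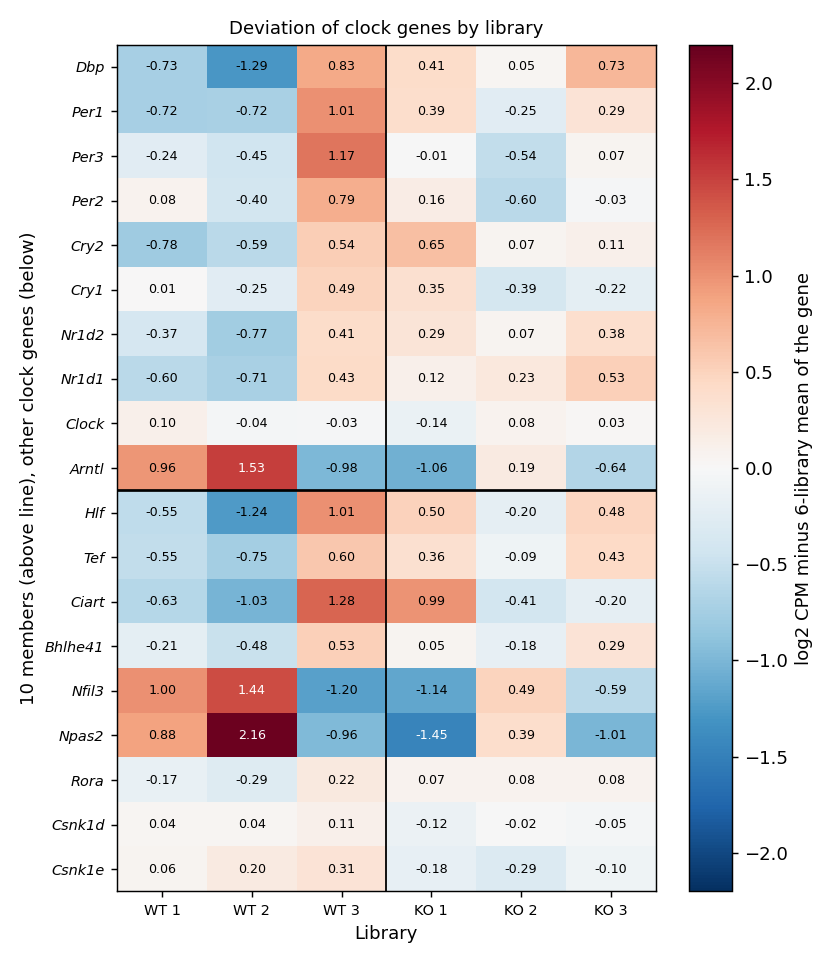
Log2 CPM of each gene minus its own mean over the 6 libraries, for the 10 members (above the line) and 9 other clock genes picked for display (below), by library. Red is above the gene's mean and blue below. Arntl, Nfil3 and Npas2 are red in WT replicates 1 and 2 where Dbp, Hlf, Tef and Ciart are blue, and the reverse holds in WT replicate 3, while the kinase genes Csnk1d and Csnk1e stay closer to their means.

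Genes for enzymes that modify PER and CRY proteins varied little between libraries, with a median within-genotype SD of 0.10 over 9 genes. Csnk1e, which encodes casein kinase 1 epsilon, a kinase of PER, was at 18.8, 20.7 and 22.3 CPM in WT and 15.9, 14.7 and 16.8 in KO. Each KO library lay below each WT library (log2 fold change -0.38, SE 0.10, unadjusted p = 0.00701, adjusted p = 0.171 in edgeR). The related kinase gene Csnk1d (-0.12, SE 0.06, adjusted p = 0.374) and the ubiquitin ligase gene Btrc (-0.14, SE 0.06, adjusted p = 0.348) were also without overlap, as was Arntl2, a paralog of Arntl (-0.61, SE 0.26, adjusted p = 0.312). On the higher side without overlap stood Csnk1a1 (0.17, SE 0.08, adjusted p = 0.370), the F-box gene Fbxl21 (0.45, SE 0.19, adjusted p = 0.306) and Nampt. These are the 4 lower and 3 higher of 25 counted above, shares near the background of 12.1% and 11.3% of all tested genes. Nampt, which encodes the NAD-making enzyme known as a clock output in liver, was at 52.5, 46.9 and 55.3 CPM in WT and 61.1, 62.1 and 63.5 in KO (0.27, SE 0.08, adjusted p = 0.192). Of the other rhythmic outputs, the deubiquitinase gene Usp2 was at -0.12 (SE 0.26, adjusted p = 0.851) and the tetraspanin gene Tspan4 at 0.44 (SE 0.30, adjusted p = 0.512).

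The genes closest to 4 members in their profile over the 6 libraries were sought among 12880 others, by the root mean square difference between log2 CPM values centred on each gene's own mean. For Arntl the closest was Nfil3 (0.16), followed by the peptide transporter gene Slc15a2 (0.33) and Npas2 (0.35). For Dbp it was Hlf (0.18), followed by Lmod1 (0.22), an actin-binding leiomodin of smooth muscle, and the secreted protease gene Adamts1 (0.24). The Dbp profile itself had a root mean square of 0.77, so these differences were small beside it. Nr1d1 lay closest to Adamts1 (0.12), the mineralocorticoid receptor gene Nr3c2 (0.14) and Glns-ps1 (0.16), with Nr1d2 at 0.15. Per3 lay closest to Gabrg1 (0.13), which encodes a GABA-A receptor subunit, then to Lonrf1 (0.21) and the potassium channel gene Kcnj3 (0.27), with Per2 at 0.22. Nr1d2 and Per2 were the nearest members in these 2 cases, and others lay further off. Per2 was at 0.53 from Nr1d1, with 7281 of the 12880 genes closer, and Dbp at 0.58 from Per3, with 5728 closer. These are descriptions over 6 libraries and carry no test.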

How the data were processed

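RNA sequencing of islets gave 6 libraries, with genotype and replicate number taken from the sample titles. The deposited table holds raw read counts per gene symbol. Per the submitters' processing notes, the tools were CASAVA 1.8.2, HISAT2 2.1.0, DESeq2 and HTSeq, on build mm9. Annotation and strand setting were not given in the sources used here. All 6 columns were matched to samples by name. Total counts were 25733194 to 27285009 per library. Rows for 24 genes carry dates in place of symbols and are not named here. Within a genotype, pairs of libraries had chi-square values of 25 to 81.8 per degree of freedom, so none was a repeat of another.

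The test was edgeR 4.0.16 in R 4.3.3 (filterByExpr, TMM, quasi-likelihood F-test, Benjamini-Hochberg over 15915 genes, threshold 0.05). Log2 fold changes are KO over WT with standard errors (SE). Log2 CPM used a prior count of 2. Alternatives were DESeq2 1.42.0, limma-voom 3.58.1, DESeq2 size factors, other filters, a replicate block, offsets on length and GC content (mgcv 1.9.3, known for 85.4% of tested genes), an adjusted p of 0.1, KO replicate 1 alone and leaving out each library. The fits were tested on simulated data. Positions and exonic lengths are from GENCODE vM1 on mm9, and promoters from RefSeq on GRCm38.p6. Python 3.11.15 with matplotlib 3.10.9 drew the figures.

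The members, the lists and the naming rule were chosen with earlier results of these data known. The rule names all members, called genes of the wider clock list, else the first 2 tested of each of its groups with those whose groups do not overlap, and the 3 nearest profiles (mean CPM of at least 1, without predicted and Y-linked genes and Xist). Nfil3 was also named by the profile rule. Some genes that the rule names are not reported here. The genes drawn below the line in the deviation map and Ciart were chosen after their values were seen.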

Additional observations from a re-analysis of the deposited data

How the results depend on the processing

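No clock member passed an adjusted p of 0.05 under any alternative run, while the count over all genes depended on the test. It was 27 lower and 0 higher in edgeR, 437 and 209 in DESeq2, 0 and 0 in limma-voom and with the replicate block, 1 (Meg3) and 0 with the length and GC offsets, 125 and 7 at an adjusted p of 0.1, and 0 and 1 (Igkv12-89) with KO replicate 1 alone against WT. Leaving out 1 library gave 0 to 80 lower and 0 to 9 higher, the most without WT replicate 3; without KO replicate 1 the 4 lower were Ddx3y, Eif2s3y, Kdm5d and Uty and the 1 higher was Xist. Same-numbered WT and KO libraries correlated in their deviations from the group means at 0.183, 0.0576 and 0.032. Differently numbered ones correlated at -0.113 to 0.0585, so the value for replicate 1 was the largest. The labels name no pairs, and the numbers were not taken as pairs. With the replicate block the median of the 10 members was 0.13. The SE there was smaller than in the main fit for every member except Cry2 (0.36) and Clock (0.09). It was 0.30 for Dbp, 0.17 for Nr1d1, 0.47 for Arntl and 0.36 for Per1. The median of the members was 0.26 with KO replicate 1 alone and -0.13 to 0.52 when 1 library was left out, and that of the other clock genes was -0.050 to 0.11.

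Arntl stayed negative and Dbp, Nr1d1, Nr1d2 and Cry2 positive in the 14 alternatives each that could move a fold change. Others changed sign, and the cause was not tested. Clock was at 0.043 with the offsets and Cry1 at 0.24 with KO replicate 1 alone. When 1 library was left out, Per1 ran from -0.22 to 0.90, Per2 from -0.60 to 0.031, Per3 from -0.77 to 0.22, Cry1 from -0.42 to 0.075 and Clock from -0.068 to 0.041. The Dbp to Arntl difference ran from 0.84 to 3.17. With 3 libraries a genotype, this spread limits what can be called for these genes.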

Other observations

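Per1 is also known as an immediate early, cAMP-responsive and glucocorticoid-induced gene, so lists for these responses are given beside it. The part of these responses in the Per1 values was not tested. The 12 immediate early genes summed to 277, 293 and 441 CPM of the total in WT and to 632, 397 and 253 in KO. KO replicate 1 was the highest library there. Within WT the sum was highest in replicate 3, the library in which Per1 was highest. Fos, a transcription factor gene of this class, was at 42.1, 41.5 and 98.7 CPM in WT and 193, 111 and 43.1 in KO. In edgeR 0 of 12 passed an adjusted p of 0.05, as in DESeq2 and limma-voom, 1 was met at an unadjusted p below 0.05 (background 16.4%), and the median log2 fold change was 0.35.

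Of the 9 glucocorticoid-induced genes, which include Per1, 0 passed in edgeR and limma-voom. In edgeR 1 was met at an unadjusted p below 0.05 (background 16.4%). In DESeq2 1 passed (Klf9, higher in KO, background 4.06%). Their summed level was 478, 598 and 697 CPM of the total in WT and 608, 625 and 456 in KO, highest in WT replicate 3. Per1 is itself part of this sum, at 27.7, 29.1 and 97.5 CPM of the total in WT and 58.2, 37.9 and 55.7 in KO. Klf9, a zinc finger factor gene, was the one member without overlap (background 23.4%), at 53.8, 58.9 and 84.2 CPM in WT and 98.5, 99.9 and 101.8 in KO, which put KO over WT at 0.61 on the log2 scale (SE 0.16, adjusted p = 0.172 in edgeR). Fkbp5, which encodes a co-chaperone of the glucocorticoid receptor, was lowest in KO replicate 3, at 86.7 CPM against 142 to 237 in the other libraries. It was highest in WT replicate 3 and overlapped between genotypes. Of the 8 cAMP and CREB target genes, 0 passed in edgeR, DESeq2 and limma-voom. At an unadjusted p below 0.05, 1 was met in edgeR (background 16.4%). Pcsk1, a prohormone convertase gene, was the one without overlap (log2 fold change 0.41, SE 0.15, adjusted p = 0.249 in edgeR), where the background was 23.4%. The 8 genes summed to 950, 882 and 1086 CPM of the total in WT and 1107, 1197 and 1342 in KO.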
